A study of Homo sapiens with 12 samples.

Results

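The D-type cyclins, their kinases CDK4 and CDK6, the inhibitors of these kinases and the retinoblastoma (RB) family form the switch that commits a cell to a new round of DNA replication. The 10 genes described here are CCND1, CCND2 and CCND3 (cyclins D1, D2 and D3), CDK4, CDK6, CDKN1B (the inhibitor p27), CDKN2C and CDKN2D (the inhibitors p18 and p19), RB1 and RBL2 (the RB relative p130). They were taken by symbol from a table of 19659 protein-coding genes, and each symbol matched 1 gene. The levels are FPKM, fragments scaled to transcript length and library size, summed over the transcripts of a gene.

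The cells were labelled HEL, a human erythroleukaemia line. One group of 3 RNA-Seq libraries came from cells kept with DMAG, a glucoside of a methylated ellagic acid taken from a plant, at 40 µg/ml for 3 days, and the other group of 3 came from controls, for which no day or vehicle is recorded and the shared treatment text names DMAG for all samples. A further 3 control and 3 DMAG libraries held small RNA. The labels do not say that the samples came from separate cultures, so the tests measure the spread between these samples only. The series is titled as a study of halted proliferation and megakaryocytic differentiation in leukaemia cells, and the question here is how the RNA of this switch differed with DMAG.

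In a resting cell, RB1 and its relatives bind E2F transcription factors and keep the genes of DNA replication silent. Mitogens raise the D cyclins, which bind CDK4 or CDK6 and start the phosphorylation that releases E2F. The inhibitors p18 and p19 bind CDK4 and CDK6 directly, whereas p27 acts on cyclin and kinase complexes. In blood cells CDK6 and the cyclins D2 and D3 are the forms most used, and RBL2 is the RB relative that accumulates in cells that stop dividing.

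The libraries need a few facts first. Libraries of 1 group correlated at 0.985 to 0.990 across the genes tested on log2(FPKM + 1), and libraries of different groups at 0.959 to 0.963. The number of reads behind the FPKM values is not recorded, but the steps between low values put the depth of the 6 libraries at 0.974 to 1.11 times that of control 1. These depths are rough, since each one set against control 1 rests on 10 to 22 of 70 to 93 genes. Of 16 markers of HEL and of the erythroid and megakaryocytic lineages, 13 lay below the level tested. HBA1 and HBA2 reached it only through the library DMAG 3, at 375 and 200 FPKM there and 0.0935 or less elsewhere. The other tested was EPOR, at 3.71 ± 0.270 FPKM in the control group and 4.49 ± 0.131 in the DMAG group. GATA1, the master regulator of both lineages, was at 0.142 FPKM or less in each of the 6 libraries. Of 10 granulocyte and monocyte markers 9 were tested, of which 5 rose and 4 fell, and the groups did not overlap for any of the 9. Over all genes tested, 48.6% were called in either direction and 59.5% had groups that did not overlap. LYZ, which encodes lysozyme, rose from 168 ± 2.61 to 444 ± 26 FPKM and the integrin gene ITGAM from 1.57 ± 0.136 to 4.68 ± 0.329. PRTN3, the granule protease proteinase-3, fell from 916 ± 61 to 227 ± 17.3 FPKM. MPO, the granulocyte peroxidase, was at 1064 to 1121 FPKM in control libraries and 735 to 900.1 in DMAG libraries. The list summed to 2312 to 2469 FPKM in control libraries and 1654 to 1816 in DMAG libraries. The library DMAG 3 stood apart in adult globin, with HBB at 1367 FPKM against 0.0731 or less in the other 5. Summed over 6 adult red cell markers, the control libraries lay at 0.0678 to 0.0754 FPKM and the DMAG libraries at 0 to 1372. The HEL list summed to 4.46 to 5.16 FPKM in control libraries and 5.66 to 582 in DMAG libraries, where the 582 of DMAG 3 was mostly HBA1 and HBA2. Results that differ without DMAG 3 are given with and without it. The part of red cell RNA, or of a shift in these myeloid markers, in any result was not tested.

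Of the 10 genes, 9 reached the level tested (a mean of at least 0.5 FPKM), 2 were lower and 2 higher with DMAG, and 5 did not pass (limma, Benjamini-Hochberg adjusted p under 0.05 over all genes tested). CCND2 and CDK6 fell, and RB1 and RBL2 rose. Of all 10394 genes tested, 26.1% were lower, 22.4% higher and 48.6% called in either direction, so the share called among these genes was near that background. The 2 groups did not overlap for 5 of the 9 genes, against 59.5% of all genes tested. The median log2 difference was 0.07 over the 9 genes and -0.01 over all genes tested. The split of calls over all genes, 2333 higher and 2717 lower, became 3221 and 1862 when libraries were rescaled to the same FPKM sum. Without DMAG 3 the number of members called higher was 4 in place of 2. With that rescaling it was 5. In bulk samples such as these, fewer cells of a type and less RNA per cell cannot be told apart.

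**Figure D1:**
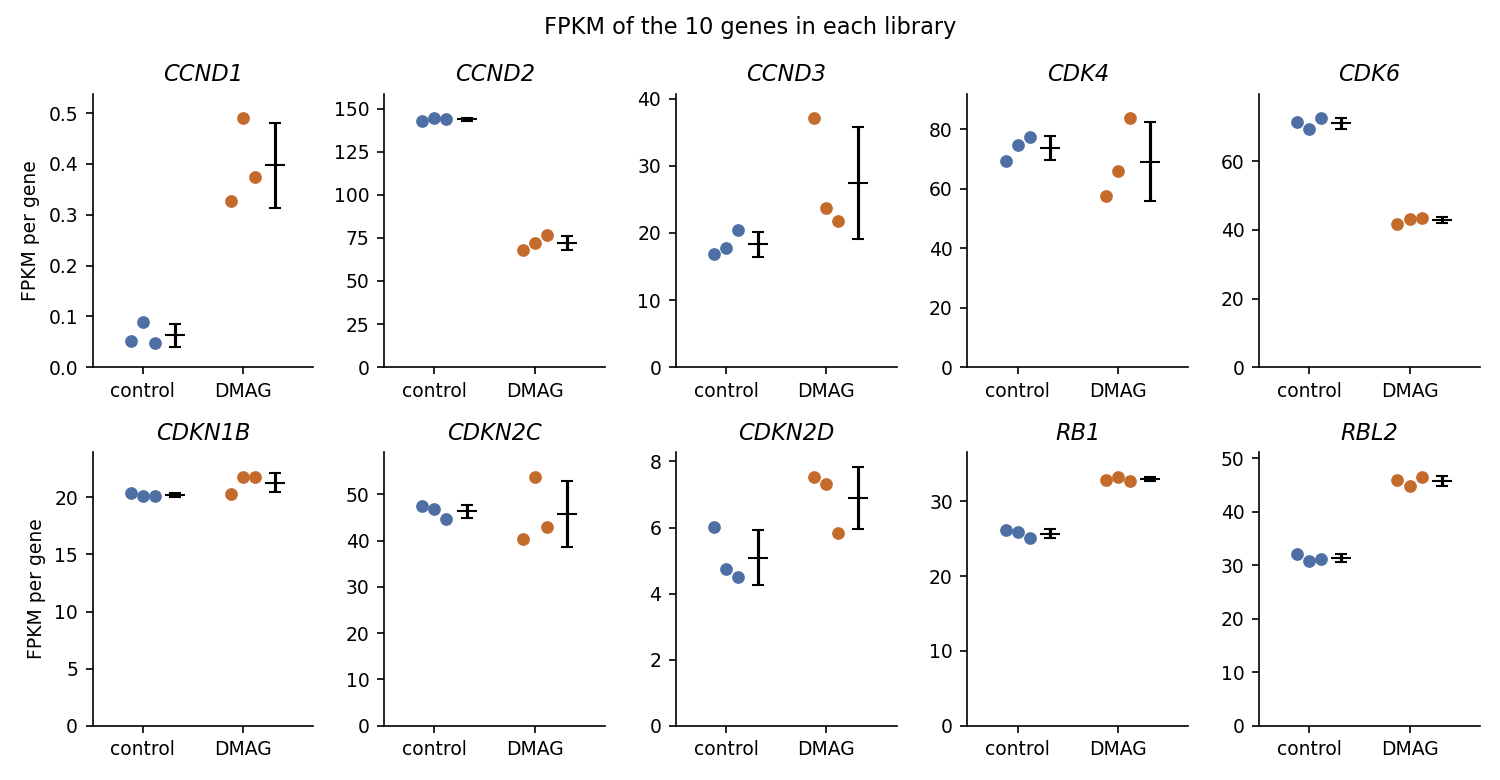
FPKM of each of the 10 genes (vertical axis, from 0, with its own scale in each panel) in the 3 control and 3 DMAG libraries, 1 point per library, with the mean and SD of each group beside the points. CCND2 and CDK6 lie lower in all DMAG libraries, RB1 and RBL2 higher, and CDK4 and CDKN2C overlap, with wide spread among the DMAG libraries.

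Of the D cyclins CCND2 fell, CCND3 did not pass and CCND1 was near 0. CCND2, a cyclin that growth signals induce in blood cells, was the most abundant of the 10 genes in controls. Its FPKM was 143, 144.3 and 144.2 in the control libraries and 68.2, 71.9 and 76.4 in the DMAG libraries. The control libraries lay close together and every DMAG library lay far below them. The fall was 1.99-fold (log2 difference -0.99, SE 0.05, adjusted p = 4.8e-05, limma), and among all genes tested CCND2 went from rank 327 to rank 699 by mean FPKM. The log2 difference without 1 library at a time ranged from -1.03 to -0.95, and CCND2 passed under each setting tried.

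CCND3, whose cyclin is the main D-type form of several blood lineages, was at 16.8, 17.7 and 20.4 FPKM in controls and at 37, 23.7 and 21.7 FPKM with DMAG. All 3 DMAG libraries lay above the controls, but DMAG 1 lay far above the other two. The difference did not pass (log2 difference 0.53, SE 0.20, 95% interval 0.05 to 1.01 before adjustment, adjusted p = 0.069), and it passed without DMAG 3 (adjusted p = 0.043) or after rescaling to the same sum (adjusted p = 0.039). In 11 of the 15 alternatives tried it did not pass (limma, adjusted p up to 0.16). The log2 difference without 1 library at a time ranged from 0.30 to 0.67. CCND1, the D cyclin common in epithelial tissues, was near 0. It was at 0.0511, 0.0888 and 0.0478 FPKM in controls and at 0.328, 0.490 and 0.375 with DMAG. The DMAG libraries all lay above the controls, at levels too low for the test, which CCND1 entered and passed without the filter on low values (log2 difference 0.39, adjusted p = 0.0019).

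Summed over the D cyclins, the level was 162 ± 2.39 FPKM in the control group and 100.1 ± 4.96 in the DMAG group (mean ± SD, n = 3 per group, as in all values of this form). Of that sum CCND2 made up 88.7% ± 0.967 in controls and 72.3% ± 6.83 with DMAG, and CCND3 11.3% ± 0.973 and 27.3% ± 6.90. The ratio of CCND2 to CCND3 was 8.49, 8.14 and 7.07 in controls and 1.84, 3.03 and 3.52 with DMAG, with no overlap. An exact two-sided permutation test over the 6 samples gave p = 0.1 for this ratio, the smallest that 3 against 3 samples allow, and 0.1 after adjustment over 4 ratios.

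The transcripts of CCND3 show where its spread lay. ENST00000372991, the most abundant, was at 9.14, 9.93 and 8.49 FPKM in controls and at 14.1, 14.7 and 16.4 with DMAG. It had no overlap and passed by itself (log2 difference 0.66, adjusted p = 0.012, limma over 26969 transcripts, of which 4.58% were higher, 5.70% lower and 10.3% called in either direction). ENST00000414200 was at 2.32, 4.24 and 8.30 FPKM in controls and at 17.8, 4.81 and 0 with DMAG. As listed, that transcript carried the excess of DMAG 1 and was at 0 in DMAG 3. FPKM per transcript are estimates of how reads divide among transcripts. Whether such jumps between libraries come from that division was not tested, here or for the genes below. Summed over its other transcripts, CCND3 was at 13.4 ± 1.22 FPKM in the control group and 20 ± 1.54 in the DMAG group (log2 difference 0.55, adjusted p = 0.0025), a sum chosen after these values were seen. CCND2 was nearly all 1 transcript, ENST00000261254, which made up 99.4% of its FPKM in controls and 99.1% with DMAG.

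**Figure D2:**
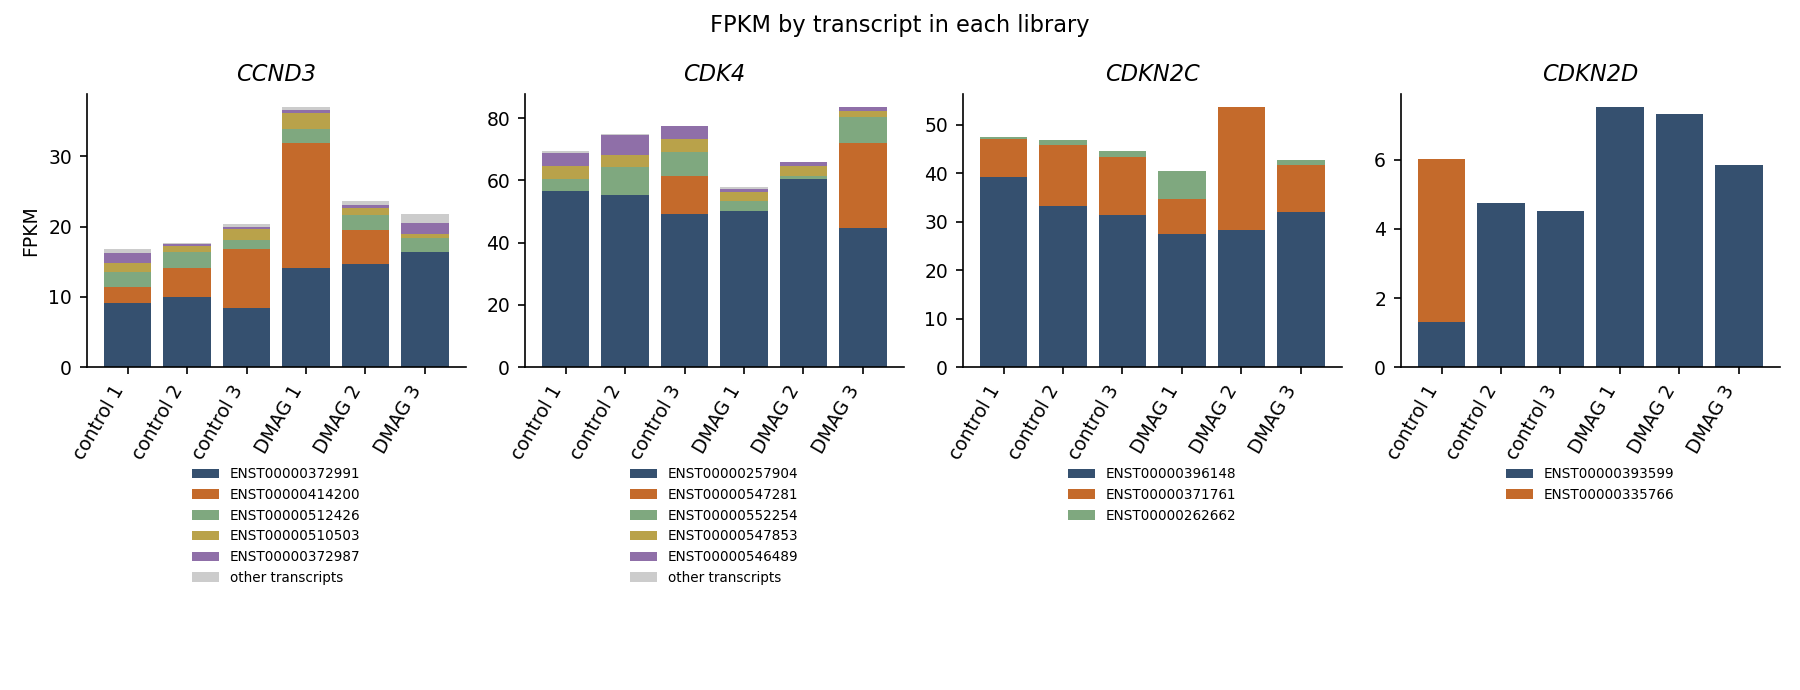
FPKM (vertical axis, from 0) of CCND3, CDK4, CDKN2C and CDKN2D in each of the 6 libraries, stacked by transcript, where grey stands for transcripts below the level tested. FPKM per transcript are estimates, and single transcripts are listed above 0 in 1 or a few libraries only, such as ENST00000547281 of CDK4 in control 3 and DMAG 3.

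Of the kinases, CDK6 fell and CDK4 did not pass. CDK6 was at 71.5, 69.4 and 72.5 FPKM in controls and at 41.8, 43.2 and 43.4 with DMAG. Each group lay within a narrow range, and the groups lay far apart. The fall was 1.66-fold (log2 difference -0.72, SE 0.03, adjusted p = 5.0e-05). Both CDK6 transcripts were lower: ENST00000265734, with 92.5% of the FPKM in controls (adjusted p = 9.0e-04), and ENST00000424848, which went from 5.35 ± 1.22 to 2.13 ± 0.472 FPKM (adjusted p = 0.032). The call on the minor one was lost without any 1 of the 6 libraries (adjusted p of 0.056 to 0.10).

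CDK4 was at 69.5, 74.9 and 77.3 FPKM in controls and at 57.7, 66 and 83.7 with DMAG. The DMAG libraries lay on both sides of the controls, with DMAG 3 the highest of the 6. The log2 difference was -0.11 (SE 0.13, 95% interval -0.43 to 0.21, adjusted p = 0.53), which leaves room for a change of either sign. Without DMAG 3 it was -0.25 (adjusted p = 0.047), and without DMAG 1 it was 0.01 (adjusted p = 0.95). Part of this spread was assigned to a transcript listed above 0 in 2 libraries only. ENST00000547281 was at 12.1 FPKM in control 3, at 27.3 in DMAG 3 and at 0 in the other 4 libraries. The most abundant transcript, ENST00000257904, was at 56.7, 55.2 and 49.4 FPKM in controls and at 50.2, 60.5 and 44.6 with DMAG, which overlap. A minor transcript, ENST00000546489, fell from 4.89 ± 1.18 to 1.24 ± 0.0836 FPKM (adjusted p = 0.0094).

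CDK4 and CDK6 were level in controls, where their library values overlapped, and not with DMAG. CDK6 made up 50.7%, 48.1% and 48.4% of their summed FPKM in controls and 42%, 39.6% and 34.2% with DMAG. The ratio of CDK6 to CDK4 was 0.965 ± 0.0559 in controls and 0.633 ± 0.105 with DMAG, with no overlap (exact permutation p = 0.1, the smallest possible, and 0.1 after adjustment).

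CDK4 is a known target of MYC, which binds the E-box CACGTG. Of 14 promoter windows of these genes in RefSeq (GRCh38.p14, windows from 250 bases before to 50 after a start), 4 held CACGTG on either strand (a palindrome, counted once), against 7.26% of all 35116 windows. They were the window of CDK4, 1 of CDK6 and 2 of CDKN2C. That of CDK4 held 3, the most of the 14, and 0.094% of all windows hold 3 or more, a cut that equals the CDK4 count. The 14 windows cover 8 of the 10 genes. Those listed for RB1 and CCND3, and some of CDK6, CDKN2C and RBL2, lie inside the gene, including a CDKN2C window with CACGTG. The 250 bases before the CDK4 start, chr12:57752311-57752560 on the minus strand, are printed since the 3 E-boxes, in capitals, all lie in them.
CDK4 upstream: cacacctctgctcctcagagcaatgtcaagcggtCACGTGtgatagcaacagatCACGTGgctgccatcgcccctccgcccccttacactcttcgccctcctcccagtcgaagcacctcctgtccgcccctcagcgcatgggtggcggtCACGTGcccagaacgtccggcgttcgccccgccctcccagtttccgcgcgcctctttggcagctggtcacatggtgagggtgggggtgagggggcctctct
MYC itself was at 16.6, 25.3 and 47.7 FPKM in controls and at 47.1, 7.15 and 33.1 with DMAG, a wide spread in both groups (adjusted p = 0.79). The E2F letters TTTCGCGC, TTTGGCGC, TTTCCCGC and TTTGCCGC, on both strands, were in 3.31% of all windows and in 0 of the 14. These are matches of letters and not measured sites.

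The inhibitors did not pass the test. CDKN1B, whose product p27 marks resting cells, was at 20.4, 20.1 and 20.1 FPKM in controls and at 20.3, 21.8 and 21.8 with DMAG. The values overlapped, and the interval of the log2 difference, -0.03 to 0.17 around 0.07, was the narrowest of the 5 genes that did not pass (adjusted p = 0.20). All of its FPKM lay in 1 of its 3 transcripts, ENST00000228872. After rescaling to the same sum it was called higher (log2 difference 0.17, adjusted p = 0.020).

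CDKN2C was the most abundant inhibitor, at 47.4, 46.9 and 44.6 FPKM in controls and at 40.4, 53.8 and 42.9 with DMAG. Here DMAG 2 lay above all controls and the other 2 DMAG libraries below them. The log2 difference was -0.03 (95% interval -0.28 to 0.22, adjusted p = 0.84), and its sign changed without DMAG 1 or 3 and after rescaling to the same sum. The excess of DMAG 2 was assigned to ENST00000371761, at 25.5 FPKM there and between 7.25 and 12.6 in the other 5 libraries. The most abundant CDKN2C transcript, ENST00000396148, was at 34.6 FPKM on average in controls and 29.3 with DMAG, with overlap.

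CDKN2D was the least abundant inhibitor, at 6.03, 4.74 and 4.50 FPKM in controls and at 7.53, 7.33 and 5.83 with DMAG. Control 1 overlapped DMAG 3. The difference fell just short of the threshold (log2 difference 0.38, SE 0.13, adjusted p = 0.0502), and it passed without control 1 (adjusted p = 0.022), without DMAG 3 (adjusted p = 0.028), and with 4 of the other settings tried. In control 1 most of the CDKN2D level was assigned to ENST00000335766 (4.71 FPKM), a transcript listed at 0 in the other 5 libraries. Summed, the 3 inhibitors were at 71.6 ± 2.29 FPKM in the control group and 73.9 ± 7.89 in the DMAG group. Relative to the summed D cyclins they were at 0.442 ± 0.0206 in controls and 0.742 ± 0.111 with DMAG, with no overlap (exact permutation p = 0.1, the smallest possible, and 0.1 after adjustment).

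Of 4 other CDK inhibitors none passed (limma), and CDKN1A and CDKN1C lay below the level tested. CDKN1A, the p53 target p21, was at 0.176 ± 0.157 FPKM in the control group and 0.328 ± 0.0508 in the DMAG group. CDKN2A, which encodes p16, was at 13.7 ± 1.85 and 14 ± 1.18 FPKM, and CDKN2B, which encodes p15, at 2.17 ± 0.179 and 2.66 ± 0.153 (adjusted p = 0.055). At an unadjusted p under 0.05 the count was 1, CDKN2B, which was called higher when libraries were scaled to the same sum or the same median.

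Both RB family members rose. RB1, the retinoblastoma gene, was at 26.2, 25.9 and 25.1 FPKM in controls and at 32.9, 33.3 and 32.8 with DMAG. RBL2 was at 32.1, 30.7 and 31.2 FPKM in controls and at 45.9, 44.8 and 46.6 with DMAG. For both genes the libraries of a group lay within a narrow range and the groups did not overlap. RB1 was 1.28-fold higher (log2 difference 0.35, SE 0.03, adjusted p = 4.9e-04) and RBL2 1.46-fold higher (log2 difference 0.53, SE 0.03, adjusted p = 1.3e-04). Each kept its call without any 1 library, with log2 differences of 0.33 to 0.36 for RB1 and 0.52 to 0.55 for RBL2.

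The rise lay in the main transcript of each gene. ENST00000267163 of RB1 went from 23.7 ± 0.824 to 31.7 ± 0.791 FPKM (adjusted p = 0.0067) and ENST00000262133 of RBL2 from 31.1 ± 0.625 to 45.1 ± 0.547 (adjusted p = 0.0019). RBL1, the pocket protein p107, was not among the 10 genes; it rose 1.14-fold, from 20.3 ± 1.34 to 23.2 ± 0.757 FPKM (adjusted p = 0.036). The 3 pocket protein genes summed to 77.3 ± 2.31 FPKM in the control group and 101.9 ± 0.588 in the DMAG group, and RBL2 was the largest share in both, at 40.6% ± 0.926 and 44.9% ± 0.836. The ratio of RBL2 to RB1 was 1.22 ± 0.0289 in controls and 1.39 ± 0.0384 with DMAG, with no overlap (exact permutation p = 0.1, the smallest possible, and 0.1 after adjustment).

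**Figure D3:**
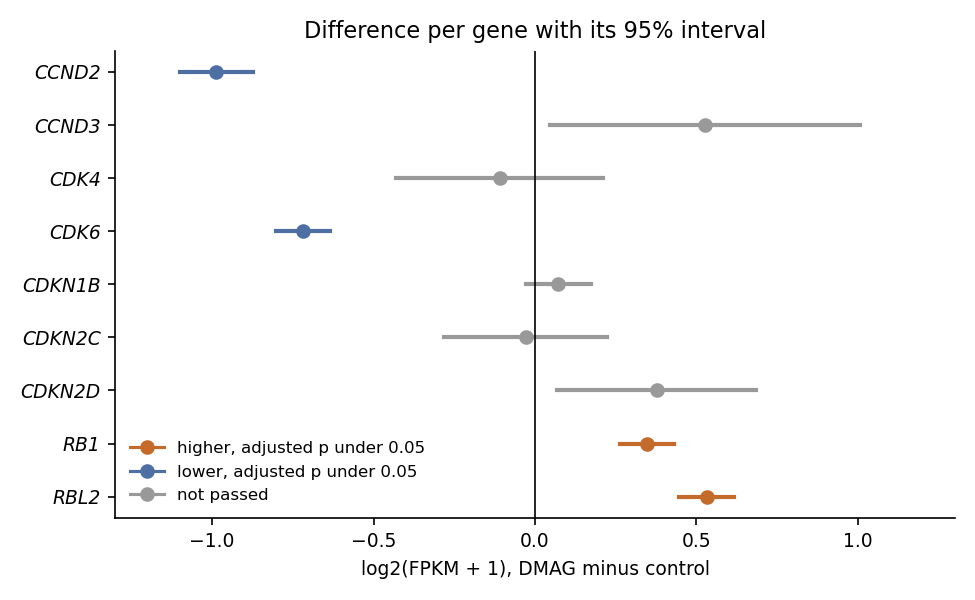
Difference of mean log2(FPKM + 1), DMAG minus control (horizontal axis), for the 9 genes tested, with the 95% interval of the limma fit before adjustment. CCND2 and CDK6 lie below 0, RB1 and RBL2 above it with narrow intervals, and those of CCND3, CDK4, CDKN2C and CDKN2D are wide.

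The order of the levels changed with these differences. In controls it was CCND2, CDK4, CDK6, CDKN2C, RBL2, RB1, CDKN1B, CCND3, CDKN2D and CCND1, and neighbours overlapped only for CDK4 with CDK6 and for CDKN1B with CCND3. With DMAG it was CCND2, CDK4, RBL2, CDKN2C, CDK6, RB1, CCND3, CDKN1B, CDKN2D and CCND1. There CCND2 overlapped CDK4, CDKN2C overlapped both RBL2 and CDK6, and CCND3 overlapped both RB1 and CDKN1B. In rank among all genes tested by mean FPKM, CDK6 went from 798 to 1447, RBL2 from 2277 to 1321 and RB1 from 2847 to 2018.

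The genes around this switch were read from lists chosen with earlier results of these data known. The background for each list is that of all genes tested, 22.4% higher, 26.1% lower and 48.6% called in either direction, with a median of -0.01. Of 15 genes for the turnover of cyclin D and p27, all tested, 2 were higher and 6 lower (median log2 difference -0.24). DDB1, a subunit of the CUL4 ubiquitin ligases, fell 1.25-fold (adjusted p = 4.4e-04) and COPS5, a subunit of the COP9 signalosome, 1.20-fold (adjusted p = 0.0012). CKS1B, the cofactor by which SCF-SKP2 recognises p27, rose 1.22-fold (adjusted p = 0.0027). SKP2, the F-box protein for p27 and named after its values were seen, fell from 37 ± 4.98 to 22.4 ± 3.11 FPKM (adjusted p = 0.0053). The 2 rises became 1 without any 1 of control 1, control 3 or the DMAG libraries, and rescaling to the same sum turned 2 rises and 6 falls into 4 rises and 3 falls. With the most abundant transcript only there were 1 rise and 3 falls.

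Of 15 transcription regulators of cyclin D and p27, 14 were tested, 3 rose and 3 fell. Among all genes tested 22.4% were higher, 26.1% lower and 48.6% called in either direction. STAT3, which carries cytokine signals to the nucleus, rose 1.59-fold (adjusted p = 1.6e-04), the progenitor factor MYB 1.56-fold (adjusted p = 1.6e-04) and STAT5B, an activator of CCND2 in blood cells, 1.41-fold (adjusted p = 0.0011). STAT5A, the paralogue of STAT5B and named after its values were seen, fell from 2.78 ± 0.417 to 1.66 ± 0.278 FPKM (adjusted p = 0.013), and the other falls were BMI1 and EZH2, both Polycomb genes. The 3 falls became 1 without DMAG 3 or after rescaling to the same sum. Of 8 genes for the assembly and activation of these kinases 1 rose and 3 fell, beside the same background. CCNH, the cyclin of the CDK-activating kinase, rose 1.28-fold, while the chaperone HSP90AB1 fell 1.15-fold and its kinase cofactor CDC37, which folds CDK4 and CDK6, 1.14-fold. CDK7, the kinase bound by CCNH and named after its values were seen, fell from 10.6 ± 0.592 to 8.74 ± 0.962 FPKM (adjusted p = 0.048, limma). Those 3 falls became 1 without control 2, control 3, DMAG 1 or DMAG 3, and 0 after rescaling to the same sum.

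Downstream, of the 11 genes of the E2F and DP families with RBL1, 4 rose and 1 fell. The background of all genes tested was 22.4% higher, 26.1% lower and 48.6% called in either direction. E2F2, an activating E2F, was at 7.05 ± 0.0877 FPKM in the control group and 18.1 ± 0.448 in the DMAG group (2.57-fold, adjusted p = 2.4e-05), and E2F3 rose 1.16-fold. TFDP1, the main DNA-binding partner of the E2Fs, fell 1.12-fold, a call lost after rescaling to the same sum. The 4 rises became 2 without control 2, control 3, DMAG 1 or DMAG 2, and 1 with the most abundant transcript only. RBL2 joins the MuvB core in the DREAM repressor of resting cells. Of 8 genes of that core with its partners, 4 rose and 1 fell, beside the same background. DYRK1A, the kinase that promotes DREAM assembly, rose 1.31-fold (adjusted p = 0.0013) and the MuvB subunit RBBP4 1.16-fold. MYBL2, which joins MuvB in dividing cells, fell 1.22-fold (adjusted p = 0.0014). With the most abundant transcript only, 2 of the 8 rose.

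Of 5 genes of cyclins E and A with CDK2, CCNA1, a cyclin of germ cells and myeloid leukaemia, rose from 0.864 ± 0.239 to 3.75 ± 0.430 FPKM (adjusted p = 3.1e-04). CCNA2 fell 1.18-fold and CCNE2 1.44-fold, a pair that became 1 gene without control 2, control 3, DMAG 1 or DMAG 2. Of 32 E2F target genes of the start of S phase 3 rose and 13 fell, with a median log2 difference of -0.14, against 22.4% higher, 26.1% lower and a median of -0.01 over all genes tested. MCM4 (1.51-fold), CDT1 (1.48-fold) and RRM2 (1.45-fold) fell most clearly. The 3 rises became 1 without control 3, DMAG 1 or DMAG 3, and 6 after rescaling to the same sum. The falls ranged from 9 to 13 over the settings tried, and from 11 to 13 without 1 library.

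The small RNA libraries gave the levels of miRNAs, and the action of these on the 10 genes was not measured. These libraries held 4303596 to 6003077 miRNA counts each. A list of 51 miRNAs was drawn from those described as repressing 1 or more of the 10 genes, of which 47 were in the table and 41 reached the level tested. With DMAG 20 of the 41 rose and 7 fell (adjusted p under 0.05, quasi-likelihood test of edgeR). Of all 583 miRNAs tested 21.4% were higher, 23.8% lower and 45.3% called in either direction, and the median log2 change was 0.23 over the listed ones and -0.08 over all. Without control 1, control 2 or any 1 of the DMAG libraries the 7 became 4. DESeq2 called 3 lower, and without TMM scaling 11 were lower and 14 higher. The labels do not say whether the small RNA and RNA-Seq libraries shared cultures.

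The 8 miRNAs named by rule are those called with the smallest p at 10 CPM (counts scaled to library size) or more, and miR-26a-5p and miR-26b-5p were added after their values were seen. Their mature sequences from RefSeq (GRCh38.p14) are shown so that miRNAs with the same seed can be compared. The seed, bases 2 to 8, is in capitals.
hsa-miR-148a-3p: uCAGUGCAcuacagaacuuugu
hsa-miR-152-3p: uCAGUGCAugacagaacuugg
hsa-miR-192-5p: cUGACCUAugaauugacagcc
hsa-miR-215-5p: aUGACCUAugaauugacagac
hsa-miR-132-3p: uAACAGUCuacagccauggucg
hsa-miR-222-3p: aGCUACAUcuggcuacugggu
hsa-miR-15b-5p: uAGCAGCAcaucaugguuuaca
hsa-miR-503-5p: uAGCAGCGggaacaguucugcag
hsa-miR-26a-5p: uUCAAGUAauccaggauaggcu
hsa-miR-26b-5p: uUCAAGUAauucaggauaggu

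The seed CAGUGCA, shared by miRNAs described as acting on CDKN1B, was higher in all 3 of its tested members. hsa-miR-148a-3p was at 54679, 52179 and 53082 CPM in controls and at 123442, 114096 and 110303 with DMAG, and hsa-miR-152-3p went from 129 ± 9.79 to 589 ± 13.5 CPM (4.58-fold, adjusted p = 3.9e-09). hsa-miR-222-3p, a classic repressor of CDKN1B, went from 5921 ± 586 to 10543 ± 415 CPM (1.78-fold, adjusted p = 6.0e-06), and its seed partner hsa-miR-221-3p was also among the 20. Beside these rises, CDKN1B mRNA had the log2 difference of 0.07 given above.

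The seed UGACCUA, of miRNAs described as acting on RB1, was higher in both members. hsa-miR-192-5p went from 268 ± 9.73 to 973 ± 53 CPM (3.64-fold) and hsa-miR-215-5p from 21.9 ± 2.59 to 59 ± 2.36 CPM (2.69-fold). hsa-miR-132-3p, also described for RB1, went from 18.5 ± 1.38 to 65.7 ± 6.06 CPM. RB1 mRNA rose in the RNA-Seq libraries, as given above.

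The seed AGCAGCA, of the miR-15 and miR-16 family described for CCND1, CCND3 and CDK6, had 5 of 6 tested members higher and none lower (edgeR). Over all miRNAs tested 21.4% were higher. Of the 5, 2 were at very low levels. hsa-miR-497-5p went from 0.431 ± 0.0506 to 3.27 ± 0.993 CPM. hsa-miR-195-5p went from 2.19 ± 0.926 to 4.79 ± 2.28 CPM (adjusted p = 0.0498, edgeR). hsa-miR-15b-5p went from 860.2 ± 36.7 to 1281 ± 75.7 CPM (1.49-fold), and hsa-miR-503-5p, whose seed ends in another base, from 266 ± 4.21 to 471 ± 0.886 CPM (1.77-fold). The seed AAAGUGC of the miR-17 family, described for CCND1, RB1 and RBL2, had 2 of 5 members lower and none higher. The let-7 seed GAGGUAG, described for CCND2 and CDK6, had 4 of 9 higher and 2 lower. miR-26a-5p and miR-26b-5p share a seed and went apart, from 10454 ± 119 to 13421 ± 896 CPM and from 6305 ± 376 to 4447 ± 171 CPM. miRNAs as alike as these 2, or as miR-192-5p and miR-215-5p, can share reads, so their separate values are uncertain.

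**Figure D4:**
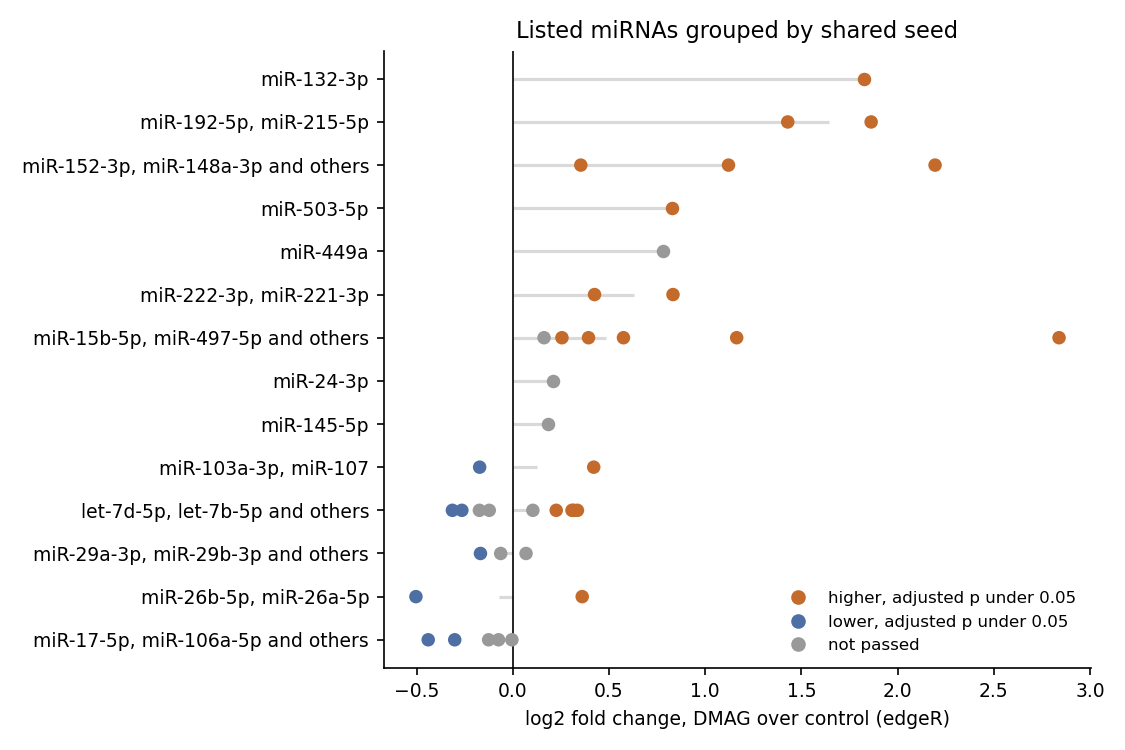
Fitted log2 fold change, DMAG over control (horizontal axis), of the listed miRNAs with a RefSeq sequence, 1 point per miRNA and 1 row per shared seed, with a grey line to the median of the row. The rows led by miR-152-3p, miR-192-5p and miR-222-3p lie wholly above 0, and those of let-7, miR-26 and miR-103a-3p hold points on both sides.

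Of 18 long noncoding RNA names listed as lying near these genes or hosting the miRNAs, 6 matched the annotated table, with 23 transcripts tested. None was higher and 3 were lower (limma on log2(FPKM + 0.1)), while of all 2746 transcripts 3.42% were lower and 12.7% higher. ENST00000582141.5 of MIR17HG, from which the miR-17 cluster is cut, was at 23.4, 19.7 and 22.3 FPKM in controls and at 10, 12.1 and 8.96 with DMAG (2.10-fold lower, adjusted p = 0.0043). ENST00000647388.1 of LINC-PINT fell 1.59-fold (adjusted p = 0.0099). ENST00000445461.6 of MIR99AHG, the host of let-7c, went from 1.60 ± 0.579 to 0.578 ± 0.193 FPKM (adjusted p = 0.042), a call lost without any 1 library other than control 3 (adjusted p up to 0.12). No transcript of DLEU2, the host of miR-15a and miR-16-1, or of CDKN2B-AS1 passed.

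On GRCh38.p14, the build whose number the submitters' processing notes share, RefSeq places CCND2 at chr12:4273762-4305353, CDK6 at chr7:92604921-92836573, RB1 at chr13:48303751-48481890 and RBL2 at chr16:53434471-53491648. CDK4 lies at chr12:57747727-57752310, CDKN1B at chr12:12717368-12722369, CCND3 at chr6:41934933-42050035 and CCND1 at chr11:69641156-69654474. CDKN2C lies at chr1:50960745-50974634 and CDKN2D at chr19:10566460-10568979. The values above are over whole genes or named transcripts, not over parts of these intervals.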

How the data were processed

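The authors deposited FPKM values per transcript for protein-coding genes and annotated lncRNAs, and read counts per miRNA, per the file headers. Per the submitters' processing notes the tools were StringTie 1.3.3, HISAT2 2.0.4 and Bowtie and the build GRCh38. Their roles, counting rules and filters are not stated in what was used here. Libraries for RNA-Seq were depleted of ribosomal RNA, with dUTP in the second strand, per the labels' protocols.

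FPKM were summed per gene and tested with limma 3.58.1 (R 4.3.3, mean trend) as log2(FPKM + 1), where the mean reached 0.5 FPKM. A difference on this scale understates that of low genes. Transcripts were tested likewise, and lncRNA transcripts as log2(FPKM + 0.1) where it reached 0.1 FPKM. miRNA counts were tested with edgeR 4.0.16 (quasi-likelihood, TMM, filterByExpr with a minimum count of 10), with DESeq2 1.42.0 as an alternative. P-values were adjusted by Benjamini-Hochberg over each whole table and called under 0.05. The limma and edgeR fits were tested on simulated data, whose noise was drawn from the models they assume. The ratios, depth estimates, letter matches and correlations were not. Fold changes of genes are ratios of mean FPKM.

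By rule the genes named were the 10 members, at most 3 called genes of each list by smallest p, MYC, at most 8 called listed miRNAs and 4 lncRNA transcripts, and the 3 genes most correlated with each of CCND2, CDK6 and RBL2. Outside this rule, and after their values were seen, the text names GATA1, HBA1, HBA2, HBB, MPO, RBL1, SKP2, STAT5A, BMI1, EZH2, CDK7, the other CDK inhibitors, miR-221-3p, miR-26a-5p and miR-26b-5p. The members and lists were chosen with earlier results of these data known. Relative depth came from single-transcript genes below 0.05 FPKM. Circular RNAs and unannotated lncRNAs were not used here. No per-sample column lacked a sample (0 of all).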

Additional observations from a re-analysis of the deposited data

How the results depend on the processing

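The falls of CCND2 and CDK6 and the rises of RB1 and RBL2 kept their direction and their call under each alternative run for the gene sums. The largest adjusted p of the 4 was 0.0057, for RB1 with a replicate block. Rescaling libraries to the same FPKM sum moved the median log2 difference of all genes from -0.01 to 0.08 and the split of calls from 2333 higher and 2717 lower to 3221 and 1862. With it 5 members were called higher, CCND3 (0.62), CDKN1B (0.17) and CDKN2D (0.46) among them, and CDKN2C turned to 0.070. CDKN2D also passed with a pseudocount of 0.01 (0.44), with scaling to the same median (0.39), with the replicate block (0.38) and without control 1 or DMAG 3 (leave-one-out range 0.31 to 0.48). Without DMAG 3, 4 members were higher (range 2 to 4 over the libraries left out), CCND3 passed (range 0.30 to 0.67) and CDK4 was lower (range -0.25 to 0.010, the latter without DMAG 1). CDKN2C ranged from -0.15 to 0.051 over the libraries left out. CCND3 passed with its most abundant transcript only (0.66) and without ENST00000414200 (0.55, chosen after seeing the data), and CCND1 passed with no filter on low values (0.39). With the most abundant transcript only, 1768 of all genes were lower, and the CDK4 transcript ENST00000257904 turned to 0.038 without DMAG 3 (range -0.18 to 0.038).

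Same-numbered samples did not deviate together (correlations of -0.0048, 0.043 and 0.027 for mRNA and -0.012, 0.0026 and -0.0099 for miRNA), and not every sample correlated best with its own number. Of the calls on the members by gene, the replicate block changed that of CDKN2D. Among the members' transcripts it left 0 higher in place of 3 (adjusted p = 0.087 for RB1 ENST00000267163, 0.053 for RBL2 ENST00000262133 and 0.098 for CCND3 ENST00000372991) and 2 lower in place of 4 (0.15 for CDK6 ENST00000424848 and 0.077 for CDK4 ENST00000546489), and the MIR99AHG transcript no longer passed (adjusted p = 0.053). Without any 1 library the transcripts called lower were 3, CDK6 ENST00000424848 being lost each time. Of listed miRNAs called lower there were 11 without TMM scaling, 3 with DESeq2, 4 with all miRNAs that had a count, and 4 to 5 without 1 library. CCND1 lies below the level tested, and a miRNA count of 0 allows up to 3 counts, at most 0.697 CPM, for counting error only.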

Other observations

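By Pearson correlation of log2(FPKM + 1) over the 6 RNA-Seq libraries, which share the 2 groups, the genes most like CCND2 were EEF2K, the kinase of elongation factor 2, the amino acid transporter gene SLC7A5 and ANKRD20A4. EEF2K went from 12.7 to 7.56 FPKM and SLC7A5 from 102 to 57.6 FPKM on average. Those most like CDK6 were GPHN, NKD2 and C6orf62, and those most like RBL2 were RAB22A, CBX5, which encodes the heterochromatin protein HP1 alpha (44.2 to 79.7 FPKM), and B2M, the light chain of HLA class I (584 to 768 FPKM). Of all genes tested, 2121 correlated above 0.9 with CCND2, 2123 with CDK6 and 1797 with RBL2, so that such likeness is common in a design of 2 groups.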
